A study of Zea mays with 10 samples.

Results

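Cytosolic glyceraldehyde-3-phosphate dehydrogenase (GAPDH; gpc1 to gpc4), phosphofructokinase (pfk1), alcohol dehydrogenase (adh1 and adh2) and the sucrose synthase of the shrunken1 locus (sh1) were followed in maize seedlings held in constant light. These 8 genes were taken by their symbols in the array's annotation, where they have 13 probe sets, out of 17621 on the array without its controls. Of the 13, 12 reached a signal of 50 on 3 or more arrays, as did 12512 of all probe sets. The set was also selected on measured values, since a signal limit and the linear fall of gpc4 and pfk1 over the course were part of the choice. Slopes of the members are therefore given as a description, with no test. The members just inside and outside the signal limit were a dim gpc1 probe set, at 46.3 to 72.6 and above the limit on 8 arrays, and the dimmest of 3 sh1 probe sets, which never passed 11.1 and is not followed further.

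Each array held leaf and shoot of seedlings of the inbred line B73, grown in garden soil, entrained to light and dark cycles and then kept in continuous light. The 10 arrays were sampled every 4 h from ZT0 to ZT8 and again from ZT20 to ZT44, where ZT counts the hours from the first dawn in constant light. ZT12 and ZT16 were not analysed here. There was 1 array per time point, made from pooled RNA, so that every signal below stands without a replicate and every standard error (SE) comes from scatter around a fitted curve. In such a series, time in constant light, seedling age and array cannot be told apart, and less RNA per cell cannot be told from fewer cells of a type.

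Glycolysis splits sugar into pyruvate in the cytosol. Phosphofructokinase commits hexose phosphate to the pathway, and GAPDH carries out its oxidative step. When oxygen is short, maize directs pyruvate through pyruvate decarboxylase and alcohol dehydrogenase to ethanol, which restores the NAD that GAPDH needs, and sucrose synthase opens sucrose for use. In maize, gpc3, gpc4, adh1, adh2 and sh1 are induced by anaerobic conditions, whereas gpc1 and gpc2 are not. Whether pfk1 is the ATP-dependent or the pyrophosphate-dependent kind of phosphofructokinase is not given in the sources used here.

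The signal of gpc4 was high on the first 3 arrays and low on all those after. It was 998 at ZT0, 1054 at ZT4 and 1139 at ZT8, then 449.7 at ZT20, 619.8 at ZT24, 496 at ZT28, 437 at ZT32, 368 at ZT36, 384 at ZT40 and 389 at ZT44. These are deposited signals after quantile scaling of the arrays. The lowest of the first 3 arrays lay above the highest of the 7 later ones. The ratio of the geometric mean of the first 3 to that of the later 7 was 2.40. Between ZT8 and ZT20, across the time points not analysed here, the signal went down by a factor of 2.53. Among the later arrays it was highest at ZT24. The fitted linear change was -0.86 per 24 h in log2 (SE 0.16), the 46th most negative of 12512.

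The signal of pfk1 was highest at ZT0 and had come down before the gap. It was 835 at ZT0, 482 at ZT4 and 379.9 at ZT8, followed by 256 at ZT20, 275 at ZT24, 250.03 at ZT28, 269.5 at ZT32, 242 at ZT36, 275 at ZT40 and 226 at ZT44. The ZT0 signal was 3.70 times that of ZT44, and the 7 later arrays spanned only 226 to 275. The 2 genes thus reached their later levels by different courses, with gpc4 still high at ZT8 and pfk1 lower at each of ZT4, ZT8 and ZT20. The linear change of pfk1 was -0.86 per 24 h in log2 (SE 0.20), the 50th most negative, and it was -0.54 without the ZT0 array. A second probe set with the same cluster number as pfk1, which the annotation gives no gene, was flatter, at 608 at ZT0, 493 at ZT20 and 519 at ZT44, with a slope of -0.16 (SE 0.08). The fall of pfk1 is therefore a reading of 1 probe set.

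**Figure D1:**
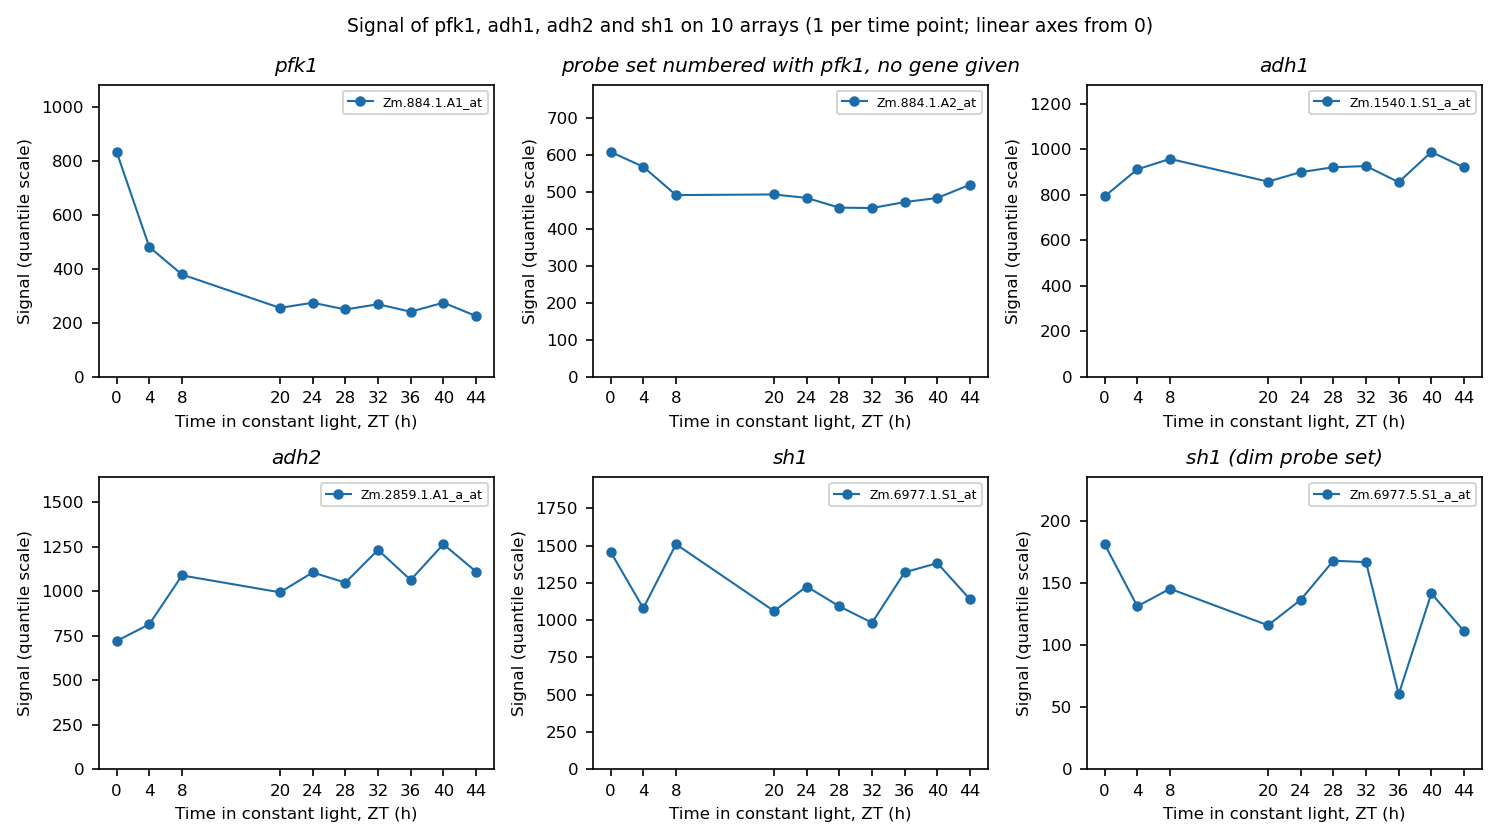
Quantile-scaled signal (linear axes from 0) against time in constant light for pfk1, the unnamed probe set that shares its cluster number, adh1, adh2 and sh1; each point is 1 array and lines only join the points. pfk1 drops from 835 to 379.9 within the first 3 arrays and then stays between 226 and 275, while adh2 is lowest at ZT0.

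Among the named probe sets of the cytosolic GAPDH family, gpc3 followed the course of gpc4 with a smaller change, while gpc1 and gpc2 moved little. For gpc3 the brightest of 3 probe sets gave 2980.5 at ZT0, 3167 at ZT4, 2902 at ZT8, 2196 at ZT20, 2650.5 at ZT24, 2441 at ZT28, 2077 at ZT32, 1922 at ZT36, and 1881 at both ZT40 and ZT44. The first 3 arrays were again above all later ones, but the ratio of geometric means was 1.41, smaller than for gpc4. The other 2 gpc3 probe sets, dimmer, went from 363 at ZT0 to 158 at ZT44 and from 327 to 125, and the second of them already stood at 209.7 at ZT8. Slopes of the 3 were -0.32 (SE 0.06), -0.53 (SE 0.13) and -0.38 (SE 0.15) per 24 h in log2, and the last was -0.19 without the ZT44 array. The dimmer pair carries the cluster number of the gpc4 probe set, and one of the pair is marked on the array as open to cross-hybridisation, so part of their signal may come from gpc4. An unnamed probe set of that same cluster stayed at 1075 to 1287 throughout. Another unnamed probe set, with the cluster number of the bright gpc3 probe set, did not fall. It read 1299 at ZT0, 1921 at ZT8 and 1524 at ZT44, with a slope of -0.0007 (SE 0.09).

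gpc1 and gpc2, the family members that anaerobic conditions do not induce, had narrow ranges. The bright gpc1 probe set ranged from 6225 at ZT8 to 7658 at ZT20, with a median of 6888, and it is marked as shared between transcripts. gpc2 ranged from 5541 at ZT8 to 6454 at ZT0, with a median of 5931. Their slopes were 0.07 (SE 0.05) and 0.02 (SE 0.05) per 24 h in log2 after quantile scaling, but turned to -0.10 (SE 0.08) and -0.15 (SE 0.09) on the deposited scale and to -0.15 and -0.20 with median centring. The direction for these 2 genes therefore depends on the scaling. Before it, the brightest signal of an array varied from 16839 at ZT4 to 10020.0 at ZT28. The slope of gpc1 was also 0.04 without the ZT28 array, and that of gpc2 was -0.01 without ZT8. The dim gpc1 probe set had a slope of -0.07 (SE 0.17), which became 0.10 without ZT0. Probe sets with the cluster number of gpc2, but no gene in the annotation, did not all stay level. The steepest read 2990 at ZT0, 2246 at ZT8, 1001 at ZT20 and 922 at ZT44, with a slope of -0.84 (SE 0.21). The others above the signal limit had slopes of -0.26 to 0.25. Which transcripts they read is not given.

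**Figure D2:**
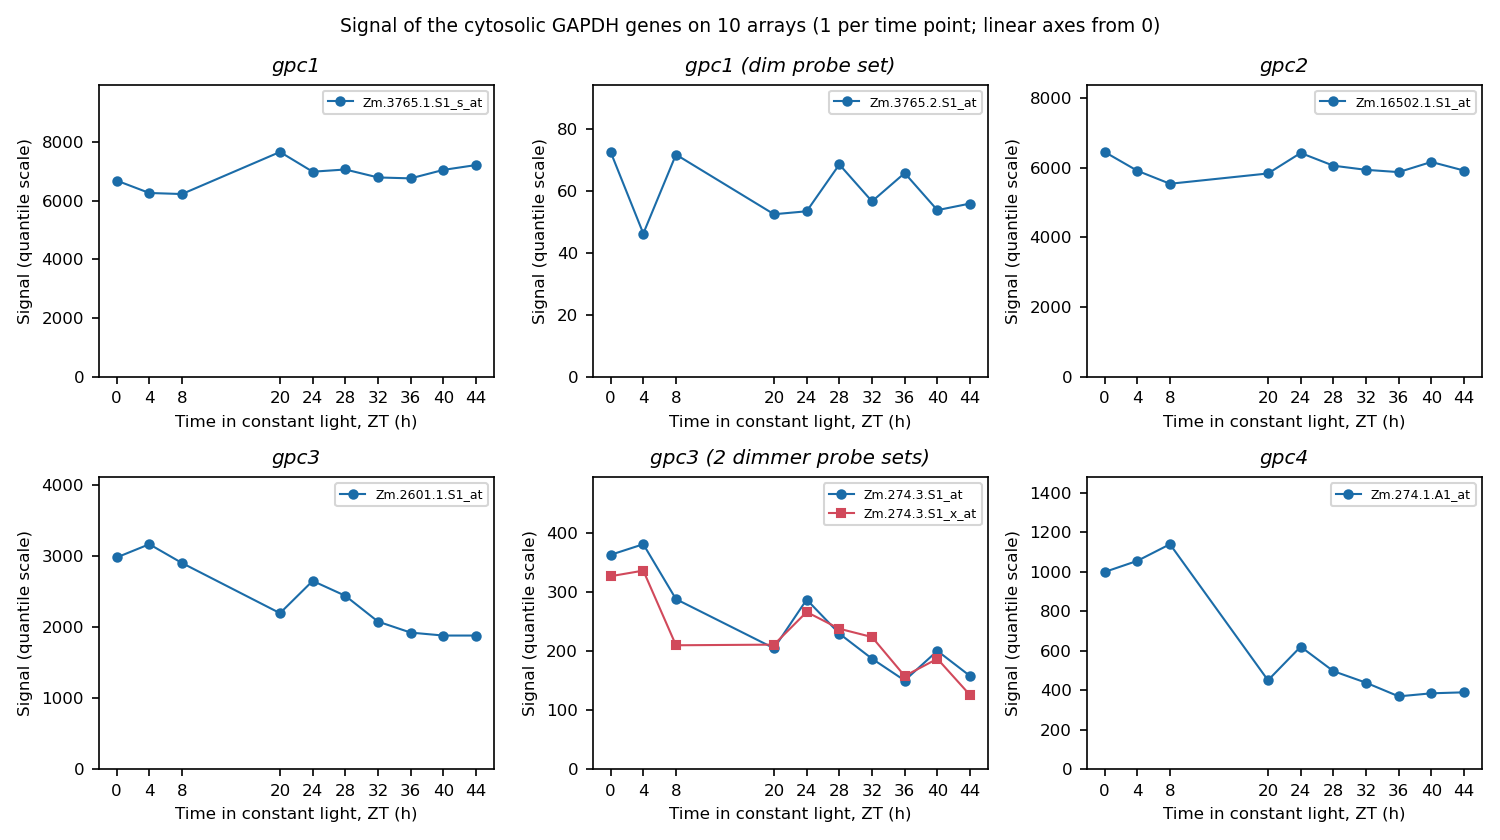
Quantile-scaled signal (linear axes from 0) of the probe sets of gpc1, gpc2, gpc3 and gpc4 against time in constant light, with 1 array per point. gpc4 stands at 998 to 1139 on the first 3 arrays and at 368 to 619.8 on the later 7, gpc3 declines by less, and gpc1 and gpc2 stay within 6225 to 7658 and 5541 to 6454.

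adh2 was lowest on the first arrays, whereas adh1 was nearly level. The signal of adh2 was 719 at ZT0, 813 at ZT4, 1087 at ZT8, 993 at ZT20, 1104 at ZT24, 1047 at ZT28, 1231 at ZT32, 1062 at ZT36, 1263 at ZT40 and 1109 at ZT44. ZT0 and ZT4 were the 2 lowest arrays, and ZT8 already lay within the range of the later ones. Its slope was 0.31 per 24 h in log2 (SE 0.10), and 0.22 without ZT0. For adh1 the arrays ran from 793 at ZT0 to 988 at ZT40 with a median of 916. The slope of adh1 was 0.07 (SE 0.07) and only 0.02 without the ZT0 array, its lowest, against 0.11 without ZT8. These 2 probe sets are of the kind that detects several transcripts of 1 gene.

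sh1 had no steady course. Its bright probe set gave 1458 at ZT0, 1079 at ZT4, 1509 at ZT8, 1061 at ZT20, 1225 at ZT24, 1092 at ZT28, 982 at ZT32, 1321 at ZT36, 1382 at ZT40 and 1139 at ZT44. Arrays before and after the gap overlapped. The slope was -0.23 per 24 h in log2 (SE 0.12), -0.14 without ZT0 and -0.15 without ZT8. A dimmer sh1 probe set ranged from 60.3 at ZT36 to 182 at ZT0 and had a slope of -0.03 (SE 0.25), which became 0.09 without ZT0. Unnamed probe sets with the cluster number of sh1 had slopes of -0.16 to -0.01.

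Arrays taken 24 h apart compare the same clock time on successive days, with 4 such pairs. gpc4 was lower on the second day in 4 of 4, by 0.69 in log2 at ZT24 against ZT0, 1.09 at ZT28 against ZT4, 1.38 at ZT32 against ZT8 and 0.21 at ZT44 against ZT20. pfk1 was also lower in 4 of 4, with differences of -1.60, -0.95, -0.50 and -0.18 in that order. Thus gpc4 differed most from the ZT8 array and pfk1 from the ZT0 array, and both differed least from ZT20. The bright gpc3 probe set was lower in 4 of 4 pairs by 0.17 to 0.48. Of the dimmer gpc3 pair, 1 was lower in 4 of 4 and the other in 3 of 4. adh2 was higher in 4 of 4 by 0.16 to 0.62, and adh1 was higher in 3 of 4. Since the slopes that chose gpc4 and pfk1 use the same arrays, these counts are a description.

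**Figure D3:**
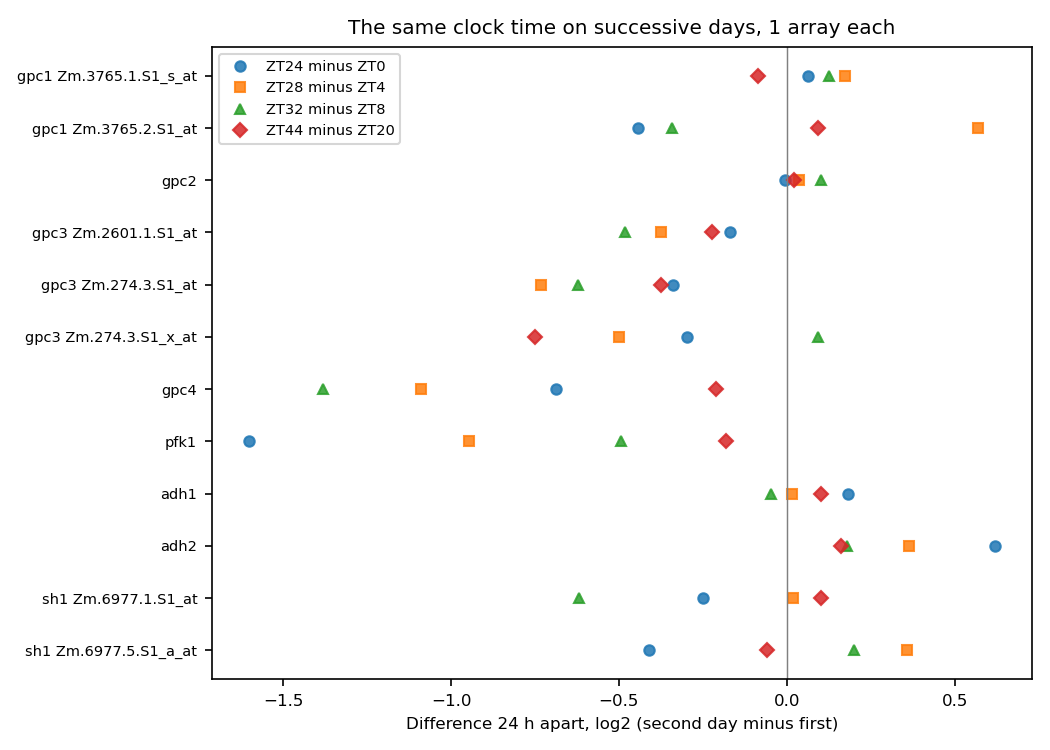
Difference in log2 signal between arrays 24 h apart (second day minus first) for each of the 12 probe sets, with a marker for each of the 4 pairs of time points. All markers lie left of 0 for gpc4, pfk1, the bright gpc3 probe set and 1 of the dimmer gpc3 probe sets, and right of 0 for adh2. The ZT44 minus ZT20 difference is the smallest of the 4 for gpc4 and pfk1.

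When only the 7 arrays from ZT20 to ZT44 were fitted, a setting chosen after the data were seen, the slope of gpc4 was -0.24 (SE 0.17), that of pfk1 -0.17 (SE 0.18) and that of the bright gpc3 probe set -0.23 (SE 0.12) per 24 h in log2. For gpc4 and pfk1 these are well under the slopes over all 10 arrays. The difference in slope was not tested. From ZT0 to ZT20 the log2 signal of gpc4 changed by -1.15 and that of pfk1 by -1.71, against -0.21 and -0.18 from ZT20 to ZT44.

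No member had a 24-h rhythm that passed limma's moderated F-test. A cosine and sine of 24 h were fitted beside the linear change, and the lowest Benjamini-Hochberg adjusted p among the 12 probe sets was 0.485, for the bright gpc3 probe set, with a peak-to-trough amplitude of 0.31 in log2 (SE 0.12). Without adjustment, 0 of these 12 came under the threshold of 0.05 in the same limma fit, against 1385 (11.1%) of all probe sets, and 0 (0%) of all probe sets passed after adjustment. Amplitudes of the members ran from 0.09 for adh1 to 0.76 (SE 0.46) for the dim sh1 probe set. With 10 arrays, rhythms of the amplitudes fitted here need not have been detectable.

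Single arrays were then compared with the curve through the others. For pfk1 and gpc4, chosen for their course over these arrays, the departures are a description. pfk1 stood 1.03 in log2 above its curve at ZT0 (SE 0.25) and 0.88 below it at ZT20. gpc4 stood 0.60 above its curve at ZT8 (SE 0.25) and 0.59 below it at ZT20. Of the other 10 probe sets, 0 departures in 100 passed limma's adjusted test, and 8 came under 0.05 before adjustment, beside 5.48% of all such departures over all probe sets and arrays. In all, 98 probe sets (0.783%) departed at ZT0, 42 of them high and 56 low. The bright sh1 probe set stood lower at ZT20 (-0.49, SE 0.17, adjusted p = 0.297).

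Likeness of the member profiles over the 10 arrays is given as a description. Pearson's r was 0.95 between gpc3 and gpc4 (Spearman's rho 0.92), 0.81 between gpc4 and pfk1 (rho 0.70) and 0.73 between adh1 and adh2 (rho 0.70). It was -0.83 between pfk1 and adh2, where rho was only -0.33, and -0.74 between gpc1 and gpc4 (rho -0.55). All values of r and rho were taken after quantile scaling only. The directions of gpc1 and gpc2 depend on that scaling, so their likenesses may too. The profiles share arrays, RNA pools and a change between the first arrays and the rest, so they are not independent points, and the value for gpc4 and pfk1 restates that both were chosen for falling. Among 955 to 957 probe sets of other named genes, the likest to gpc4 were cyc3, a cyclin (r 0.981), ERF1 (r 0.976) and Ann7, an annexin (r 0.963). The likest to pfk1 were zrp4 (0.962), the alpha-tubulin tua5 (0.961) and the cytosolic malate dehydrogenase mdh4 (0.959). For adh2 the likest was pdc3, a pyruvate decarboxylase (r 0.972), then the cystatin psei1 (0.933) and the cysteine protease ccp2 (0.931). por1 (0.957), gpc4 itself (0.954) and pdh2, a pyruvate dehydrogenase subunit (0.952), were likest to gpc3. The likest profiles had lower r for sh1, with CDC5 (0.882), met2 (0.837) and NIT2 (0.830), and for adh1, with pdh1 (0.870) and 2 probe sets of bx6 (both 0.818). For gpc1 they were ESMT1 (0.972), pds1 (0.939) and CesA-9 (0.924), and for gpc2 ACO31 (0.907), the sulfite reductase listed as cl122_1 (0.777) and rca1 (0.766).

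The rest of the pathway was read from lists of gene symbols, with each gene entered through its brightest probe set. Over all 12512 probe sets the linear change passed limma's test in 403 (3.22%) that fell and 417 (3.33%) that rose, and with median centring in 551 and 311. These counts rest on single arrays, since 0 fell and 2 rose without ZT28, and 9 fell and 48 rose without ZT0. Of 6 other glycolytic genes measured, 0 rose and 0 fell in this test. Their median slope was 0.02 in log2, beside 0.003 for all probe sets. The glucose-6-phosphate isomerase phi1 had the lowest p, at 1586 to 2133 on the first 3 arrays and 2326 to 2803 after, with a slope of 0.31 (SE 0.10, adjusted p = 0.0884), which passed without ZT20 (0.0278) or without the cosine and sine (0.0463). The enolase eno1 had 0.12 (SE 0.07), and the fructokinases frk1 and frk2 had -0.18 (SE 0.09) and -0.08 (SE 0.06). The cytosolic aldolase ald1, which like eno1 and phi1 is known to respond to anaerobic conditions in maize, had -0.01 (SE 0.05).

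Of 9 further genes of fermentation and the anaerobic response, 2 fell, 1 rose and 6 did not pass, with a median slope of -0.03. sus1, a second sucrose synthase, fell from 5843 at ZT0 and 5395 at ZT8 to 4522 at ZT20 and 4295 at ZT44, with a slope of -0.33 (SE 0.07, limma adjusted p = 0.0279). xet1, an anaerobically induced xyloglucan endotransglycosylase, stood at 2153 at ZT0, 792 at ZT4 and 671 at ZT8 and between 372 and 573 thereafter. Its slope was -0.97 (SE 0.24, adjusted p = 0.0426), and -0.53 without ZT0, where its signal lay 1.44 in log2 above its curve (SE 0.19, adjusted p = 0.00977). pdc2, a pyruvate decarboxylase, rose from 27.5 at ZT0 to 60.5 at ZT44, with a slope of 0.95 (SE 0.20, adjusted p = 0.0296). It passed the signal limit only through the 6 arrays from ZT24 on, so that its direction was partly fixed by the filter and its rise is read as no support. With a pseudocount of 32 the slope was 0.53, and its 3 other probe sets never passed 36.1. The calls of sus1 and pdc2 were lost without ZT0, ZT8, ZT24, ZT28 or ZT32, with adjusted p of 0.051 to 0.102 for the first and 0.0581 to 0.0975 for the second, and 0.186 for both without ZT28. That of xet1 was lost without any 1 array but ZT20, with p of 0.0517 to 0.202, and also on the deposited scale (0.0517), with no filter (0.0562) and with robust variances (0.0667). The slope of sus1 was -0.52 with median centring. The aldehyde dehydrogenase rf2d was far under the signal limit at ZT0, at 3.87, and at 130.2 at ZT44. At ZT0 it departed from its curve by -3.33 in log2 (SE 0.44, limma adjusted p = 0.0101), the other way from xet1 but from that dim value. Its slope of 2.10 (adjusted p = 0.0524) was 1.02 with a pseudocount of 32 and 1.07 without ZT0, so its size is not fixed by these data. Its linear change passed limma's adjusted test without ZT4 (0.0497), ZT20 (0.00997) or the cosine and sine (0.0104). It also passed with a pseudocount of 32 (0.0271), on the deposited scale (0.0459) and with median centring (0.0481). In the other 11 of 17 alternatives it did not pass, as with no filter (0.07), with robust variances (0.0899) and without ZT28 (0.236). rf2d reached the signal limit on 8 arrays, mostly the later ones, and read 34.7 at ZT8. The filter thus partly fixed its direction too, and its rise is read as no support. pdc3, whose profile was likest to adh2, had 311 at ZT0 and 480.0 at ZT44 and a slope of 0.32 (SE 0.12, adjusted p = 0.112). That slope was 0.21 without ZT0, and adjusted p was 0.0176 without the cosine and sine.

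**Figure D4:**
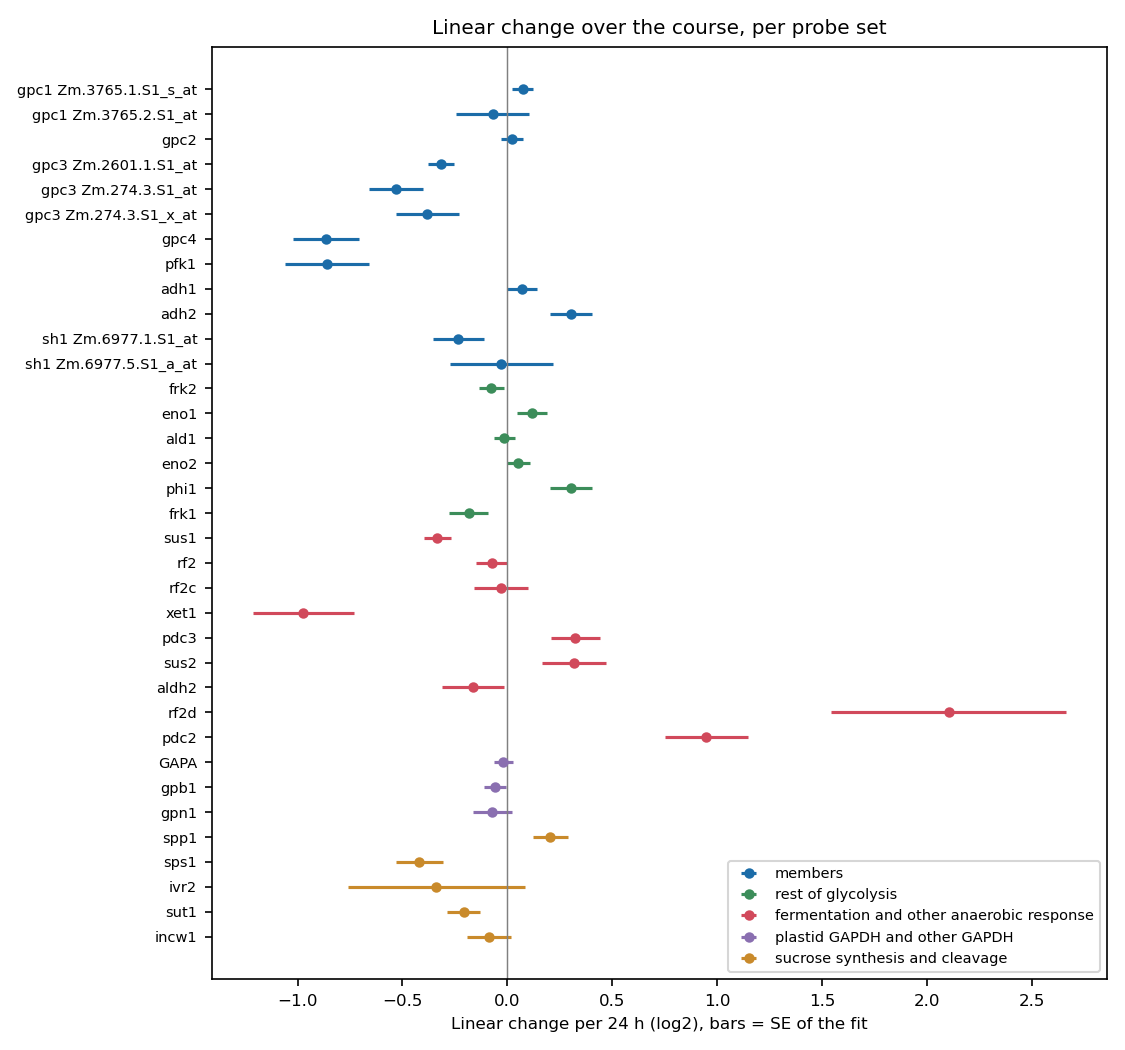
Linear change per 24 h in log2 for the 12 member probe sets and for the brightest probe set of each measured gene in 4 related lists; points are estimates and bars are the SE of the fit. gpc4 and pfk1 lie at -0.86, adh2 at 0.31 and the other genes of glycolysis between -0.18 and 0.31.

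None of 3 other GAPDH genes passed the linear test. The plastid subunits GAPA and gpb1 and the non-phosphorylating gpn1 had slopes of -0.02 (SE 0.05), -0.06 (SE 0.05) and -0.07 (SE 0.09). A further gene, GRMZM2G051004, matched to an Arabidopsis plastid GAPDH, had 589 at ZT0 and 939.9 at ZT44 (slope 0.23, SE 0.15). Of 4 other phosphofructokinase genes, named through their Arabidopsis matches, 0 passed. GRMZM2G443985 came nearest in limma's linear test, with 275 at ZT0, 342 at ZT44 and a slope of 0.22 (SE 0.10, adjusted p = 0.189). The 2 of lowest p in the 24-h test, GRMZM2G132069 and GRMZM2G080375, read 879.8 and 724 at ZT0, 406 and 322 at ZT8, and 709 and 495 at ZT20. Their slopes were 0.14 (SE 0.14) and 0.03 (SE 0.14), and their 24-h adjusted p were 0.384 and 0.380. Because the study selected such genes as cycling on these same samples, their 24-h course is no independent evidence.

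Among 5 measured genes of sucrose synthesis, transport and cleavage, 0 passed the linear test. The sucrose phosphate synthase sps1 came nearest, with a slope of -0.42 (SE 0.11, adjusted p = 0.0539), and passed without ZT0 (0.0436) or ZT44 (0.0454), with median centring (0.0471) and with robust variances (0.0498). The soluble invertase ivr2 had 2906 at ZT0, 2055 at ZT4, 327 at ZT8, 756 at ZT20, 1092 at ZT24 and 609 to 889 after, with a slope of -0.34 (SE 0.42). The transporter sut1 and the sucrose phosphatase spp1 had -0.21 (SE 0.08) and 0.21 (SE 0.08), and the cell wall invertase incw1 -0.09 (SE 0.11). Of 4 genes of mitochondrial respiration, 1 rose, the alternative oxidase aox1. It had 596 to 689 on the first 3 arrays and 943 to 1272 after (slope 0.55, SE 0.12, adjusted p = 0.0305). Its call was lost without ZT0, ZT4, ZT8, ZT24, ZT28 or ZT32 (0.0539 to 0.198). aox3, pdh1 and ATP2, the ATP synthase beta subunit, had slopes of 0.50 (SE 0.28), 0.06 (SE 0.07) and 0.01 (SE 0.05).

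Markers of the labelled tissue were measured on every array. The leaf list, which holds the C4 genes pep1, pdk1, me3 and mdh6, had 10 of 11 probe sets above the signal limit. Its 11 probe sets, of 7 genes, summed to between 69279 and 75630.4 over the arrays, and 0 of the genes passed the linear test. Of 15 probe sets of kernel markers, 3 passed the signal limit (mez1, bt2 and zp27), and the list summed to 504 to 647. The endosperm genes o2, sh2, FL2 and gz50 stayed at or under 27.1, whereas the brightest zp27 probe set read 40.8 to 99.9. That zp27 probe set had a slope of -0.69 (SE 0.19), and mez1, at 180 to 302, had -0.29 (SE 0.10). bt2, at 140 to 214, had 0.07 (SE 0.12), and 0 of these 3 passed the linear test. The 3 pollen probe sets summed to 26.7 to 57.7 and the 4 root probe sets, all of nas1, to 41.6 to 105. Of these, 0 pollen probe sets and 1 root probe set passed the signal limit. That nas1 probe set read 80.1 at ZT0, 85.8 at ZT4, 52.1 at ZT8 and 13.9 to 59.6 after. Its slope was -0.51 (SE 0.34), which did not pass the linear test. Whether a change in cell makeup had a part in the courses of gpc4, pfk1 or adh2 was not tested.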

How the data were processed

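The deposited values were signal intensities of the Affymetrix maize array on a linear scale, which the authors made with MAS5 per the labels; its version is not given in the sources used here. A floor of 1 was applied before log2, followed by quantile normalization of the 10 arrays without their 113 control probe sets. The filter kept probe sets that reached a deposited signal of 50 on 3 or more arrays. The model, fitted by limma 3.58.1 under R 4.3.3 with moderated variances that follow intensity, held a 24-h cosine, a 24-h sine and a line in time, scaled to change per 24 h. The residual degrees of freedom were 6 and the prior ones 4.3. The cosine and sine were tested together, the line alone, and an indicator for each array in turn, with Benjamini-Hochberg adjustment over all 12512 probe sets at a threshold of 0.05. The rhythm test, the linear test and the departure test at ZT0 were run on simulated data with independent noise. The floor, scaling and filter were not simulated. With 1 array per time point, the number of arrays limits the precision, and p-values measure scatter around a curve. Levels of different probe sets are not comparable, since probe affinity is unknown.

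Names come from the platform annotation, where 1452 probe sets have 1 gene and 1 has several, updated by gene number through the Zm-B73-REFERENCE-NAM-5.0 gene table, which matched 1377. Other GAPDH and phosphofructokinase genes were named by a table of Arabidopsis matches held in part. From the lists, 4 probe sets that only share a symbol were left out by hand. The text names all members, up to 4 genes of each list with the lowest p and each called gene, and for each member the 3 named probe sets of highest r. The genes ald1 and incw1 and the leaf and kernel markers given as examples were picked after their values were seen. The members, lists and tests were chosen with earlier results of these data known. Sequences and promoters were not analysed here. Alternatives were the deposited scale, median centring, no filter or a limit of 100, a pseudocount of 32, robust variances, each array left out, other periods (22 and 26 h), other time terms, and fits without the line or the cosine.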

Additional observations from a re-analysis of the deposited data

How the results depend on the processing

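No member passed the 24-h test under any alternative (lowest adjusted p 0.225, over 239 values). With an offset between days in place of the line, 1 of all probe sets passed, none with the other alternatives; at an unadjusted p of at most 0.05 there were 752 without the ZT8 array. The counts of all probe sets with a linear change were the least stable. They were 0 to 1208 that fell and 2 to 1103 that rose with each array left out, 1331 and 1293 without the cosine and sine, 0 and 0 with the arrays from ZT20 to ZT44 alone (where the slope of phi1 turned to -0.0147), and 261 that fell with no filter. Departures at ZT0 rose to 263 without the line. Over 17 alternatives the slopes of gpc4 (-1.01 to -0.70), pfk1 (-1.03 to -0.54), gpc3 and adh2 (0.22 to 0.39) kept their sign, while those of gpc1 and gpc2 did not. The causes were not tested. No paired analysis was possible because all time points share 1 replicate number, which leaves no replicate block to fit; the days were compared by clock time in the report and by the offset above. With 1 array per time point, the spread between seedlings is unknown, and dim probe sets such as those of pdc2 lie near the signal limit.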
